A study of Mus musculus with 4 samples.

Results

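The genes described here are 10 amino acid transporter genes, out of 32285 genes counted: Slc38a2, Slc38a4, Slc38a5, Slc7a2, Slc7a5, Slc7a8, Slc7a11, Slc7a14, Slc3a2 and Slc3a1. They were chosen by name, all 10 were found by symbol, and each was followed across the islet cell classes of 4 single-cell RNA libraries. Pancreatic islets came from female mice on the C57b6/J background, either WT (CCR2-DTR-/-) or littermates carrying 1 copy of CCR2-DTR (CCR2-DTR+/-), at 1 or 6 months of age. All groups, WT included, had received diphtheria toxin as newborns, in 4 injections 48 hours apart from postnatal day 2, and were weaned at day 21 onto chow. The transgene places the toxin receptor on cells that use the Ccr2 gene, a chemokine receptor gene of monocytes. Each group was 1 library made from 300 hand-picked islets of 2 to 3 females, so a difference between genotypes or ages has no replicate and is given without a test.

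Amino acids are secretagogues for islet cells: arginine and glutamine metabolism act on alpha cells, which release glucagon, and leucine, glutamine and arginine act on beta cells, which release insulin. The Slc38 proteins are sodium-coupled carriers of small neutral amino acids and glutamine. Several Slc7 proteins are light chains that reach the plasma membrane bound to a heavy chain, Slc3a2 (CD98) for Slc7a5, Slc7a8 and Slc7a11, and Slc3a1 for the cystine carrier of kidney and gut. Other Slc7 proteins carry arginine and lysine without a heavy chain. Slc38a5 has been described in mouse alpha cells that multiply when glucagon signalling is interrupted and blood amino acids are high.

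The libraries held 5089 to 12444 barcodes and 60315217 to 121292320 UMIs (unique molecular identifiers, each 1 captured RNA molecule). After filters, 3633 to 8736 cells a library were kept, at a median of 8859 to 14703 UMIs. Classes were named from fixed marker genes, with the 10 transporter genes themselves left out of the clustering. Cells of the cluster led by proliferation genes were classed by their leading hormone instead. It had to supply at least 80% of a cell's hormone UMIs, and hormones at least 5% of all its UMIs. Beta-like cells numbered 3236 in WT at 1 month, 2630 in CCR2-DTR at 1 month, 590 in WT at 6 months and 1134 in CCR2-DTR at 6 months. Alpha-like cells numbered 2309, 2418, 658 and 837 in the same order, and delta-like cells 682, 710, 355 and 339. The beta-like class drew mainly on cluster 3 in WT at 1 month (1308 cells), cluster 4 in CCR2-DTR at 1 month (907) and cluster 1 at 6 months (335 and 629). Cluster 2 led the alpha-like class of CCR2-DTR at 1 month (1171 cells) and cluster 0 that of the other 3 libraries. Clusters with no class name held 9.86%, 13.5%, 34.5% and 22% of the kept cells. They included a low-UMI cluster (0.286%, 3.33%, 28.0% and 14.7%) and 2 clusters with leading hormone genes of another cell type (6.47%, 7.35%, 4.13% and 4.52% for the insulin-rich one, and 2.24%, 1.52%, 1.73% and 2.16% for one led by Ghrl and Sst), kept apart by a rule set after the data were seen. Pairs of libraries shared 6 to 34 barcode sequences, at most 0.422% of the smaller library.

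Levels are given in CPM, the UMIs of a gene per 1000000 UMIs of all cells of the class in 1 library. CPM were not divided by transcript length, so they are compared between cell classes or libraries and not between genes. Cell classes were compared with edgeR's quasi-likelihood test on the class sums of the 4 libraries, with the library as a block, TMM normalization and Benjamini-Hochberg adjustment over 14049 genes. A gene was called at an adjusted p under 0.05 and at least 2-fold. Of the 10 transporter genes 9 passed the filter on low counts and were tested. Slc3a1 was not. Beta-like against alpha-like cells, 2 were called higher and 2 lower, where 8.86% and 10.8% of all genes tested were called in those directions. Without TMM factors, a setting that moves every gene toward lower in beta-like cells, the same counts were 1 and 4. No share of all genes is given for that setting. Beta-like against delta-like cells, 4 were called higher and 1 lower, against 7.00% and 12.4% of all genes. Alpha-like against delta-like cells, 5 were called higher and 0 lower, against 4.75% and 8.74% of all genes. The mean of the 3 endocrine classes against the mean of endothelial-like, mesenchymal-like and macrophage-like cells gave 6 called higher and 0 lower, against 16.7% and 18.5% of all genes. The mean log2 TMM factor was -0.51 for beta-like, -0.08 for alpha-like and 0.26 for delta-like sums, so log2 differences after TMM depart from the ratio of plain CPM. Hormone genes supplied 48.4% to 54.4% of beta-like UMIs, 30% to 34.2% of alpha-like UMIs and 25% to 26.7% of delta-like UMIs.

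**Figure D1:**
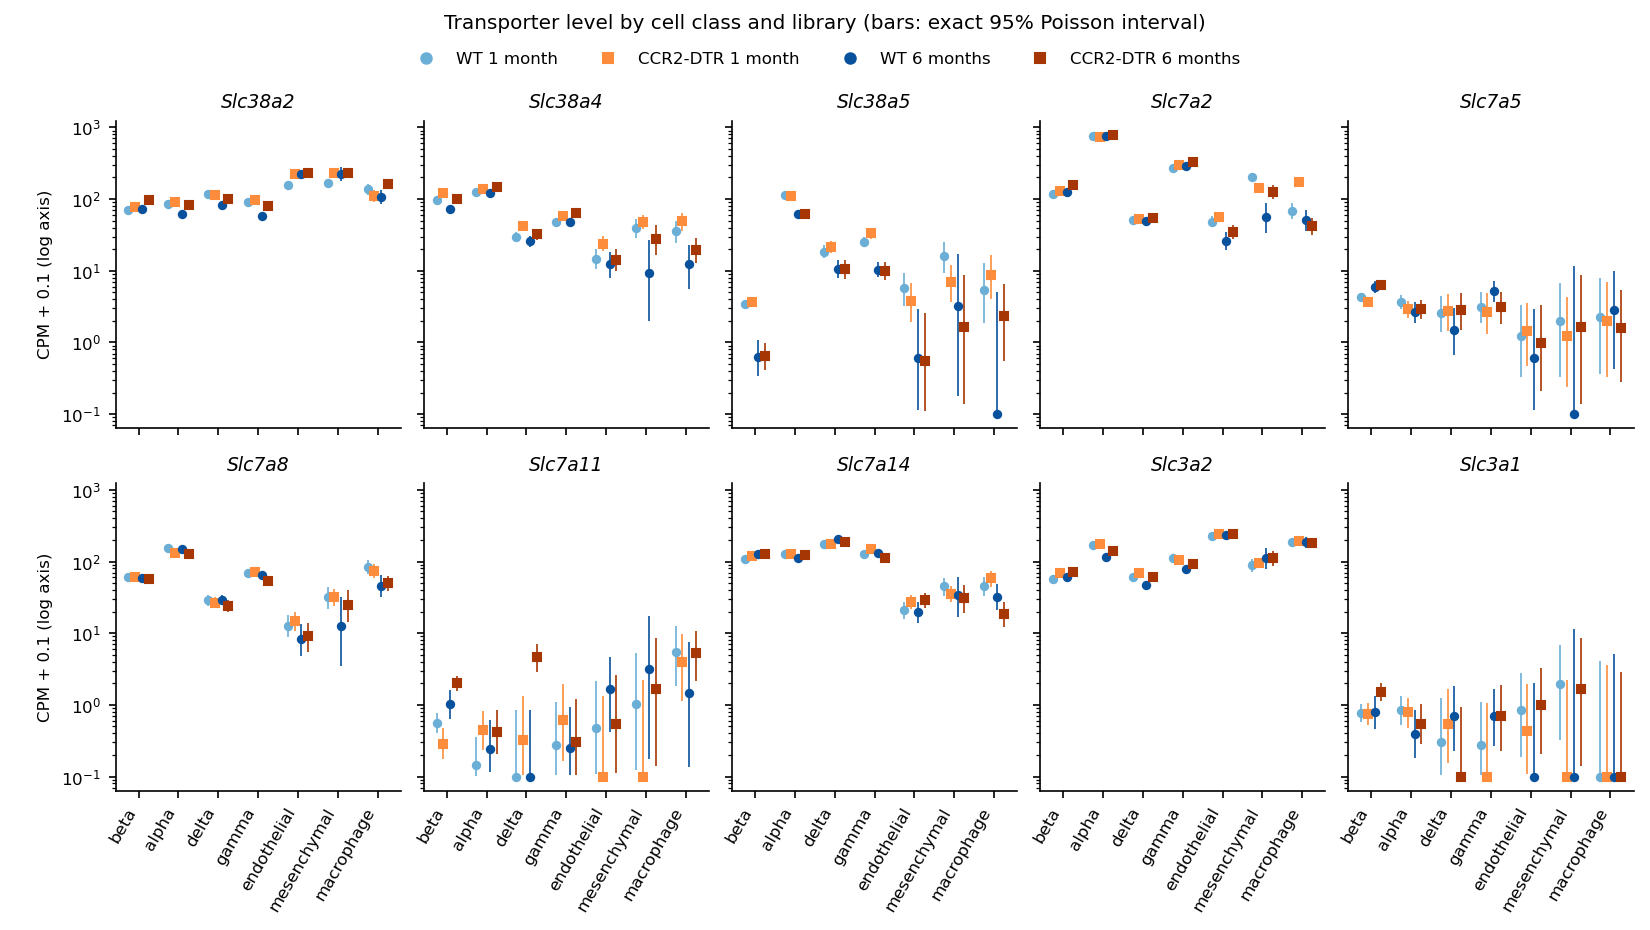
CPM of each of the 10 transporter genes (1 panel a gene, logarithmic vertical axis, with a small constant added so that 0 can be drawn) in 7 cell classes (horizontal axis), with 1 point for each of the 4 libraries and exact 95% Poisson intervals as bars. Slc7a2, Slc38a5 and Slc7a8 are highest in alpha-like cells in every library, Slc7a14 is highest in delta-like cells, and Slc3a2 is highest in endothelial-like cells.

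Slc38a5, a glutamine, asparagine and histidine carrier (chrX:8271133-8280179 in GRCm38, plus strand), was 32.8-fold lower in beta-like than in alpha-like cells. Alpha-like cells held 114.8 CPM in WT at 1 month, 109.5 in CCR2-DTR at 1 month, 62.72 in WT at 6 months and 61.74 in CCR2-DTR at 6 months, from 868 to 2458 UMIs a library. Beta-like cells held 3.341, 3.55, 0.5221 and 0.5469 CPM and delta-like cells 18.37, 21.48, 10.59 and 10.42 CPM in the same order. Every alpha-like value was above every value of the other 6 classes compared, and delta-like values did not overlap beta-like ones. The log2 difference was -5.03 ± 0.20 (SE) for beta-like against alpha-like cells (edgeR adjusted p = 3.71e-16, lower in 4 of 4 libraries), 2.89 ± 0.20 for alpha-like against delta-like cells (1.84e-11) and -2.14 ± 0.25 for beta-like against delta-like cells (9.25e-08).

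In both genotypes the Slc38a5 level of alpha-like cells was lower at 6 months than at 1 month. The log2 ratio of 6 months to 1 month was -0.87 in WT (95% counting interval -0.99 to -0.76) and -0.83 in CCR2-DTR (-0.94 to -0.72), a 1.83-fold and a 1.77-fold lower level. Such intervals are exact for Poisson counts and hold the error of counting alone. Beta-like cells, at much lower counts, gave -2.68 (-3.83 to -1.72) in WT, from 197 and 9 UMIs, and -2.70 (-3.52 to -1.97) in CCR2-DTR, from 135 and 17 UMIs. Delta-like cells gave -0.79 (-1.31 to -0.29) in WT and -1.04 (-1.58 to -0.52) in CCR2-DTR. All 6 ratios point the same way, although the 2 genotypes share no library and the 3 classes share each. Between genotypes of 1 age the alpha-like levels were close, with log2 CCR2-DTR to WT ratios of -0.07 (-0.15 to 0.01) at 1 month and -0.02 (-0.16 to 0.11) at 6 months.

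The share of alpha-like cells with at least 1 Slc38a5 UMI was 48.2%, 42.7%, 46.4% and 41.8% in the same order of libraries, but median depth differed, at 8314, 8084, 20145 and 17696 UMIs a cell. With each cell thinned to 2000 UMIs the shares were 17.1% (exact 95% interval 15.5 to 18.7), 15.9% (14.5 to 17.5), 9.95% (7.77 to 12.5) and 9.99% (8.02 to 12.2). At equal depth the share was thus lower at 6 months in both genotypes. Thinned beta-like cells, as a background class, had 0.469%, 0.820%, 0.353% and 0.274%, and thinned endothelial-like cells 0.378%, 0.868%, 0.341% and 0.306%.

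Within the alpha-like class, both large clusters showed the difference with age. Cluster 0 had 112.2, 105.9, 58.7 and 65.44 CPM and cluster 2 had 120.2, 105.5, 73.26 and 47.88 CPM of Slc38a5. The few alpha-like cells that grouped with dividing cells were classed by their leading hormone, unlike the rest. They had 148.3 CPM in WT at 1 month (16 cells) and 275.2 CPM in CCR2-DTR at 1 month (36 cells). The rest of the class had 114.5 and 105.6 CPM. Without the dividing cells the log2 age ratio was -0.87 in WT and -0.78 in CCR2-DTR. Dividing beta-like cells likewise held 6.763 and 7.808 CPM at 1 month, and the other beta-like cells 3.011 and 3.089.

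**Figure D2:**
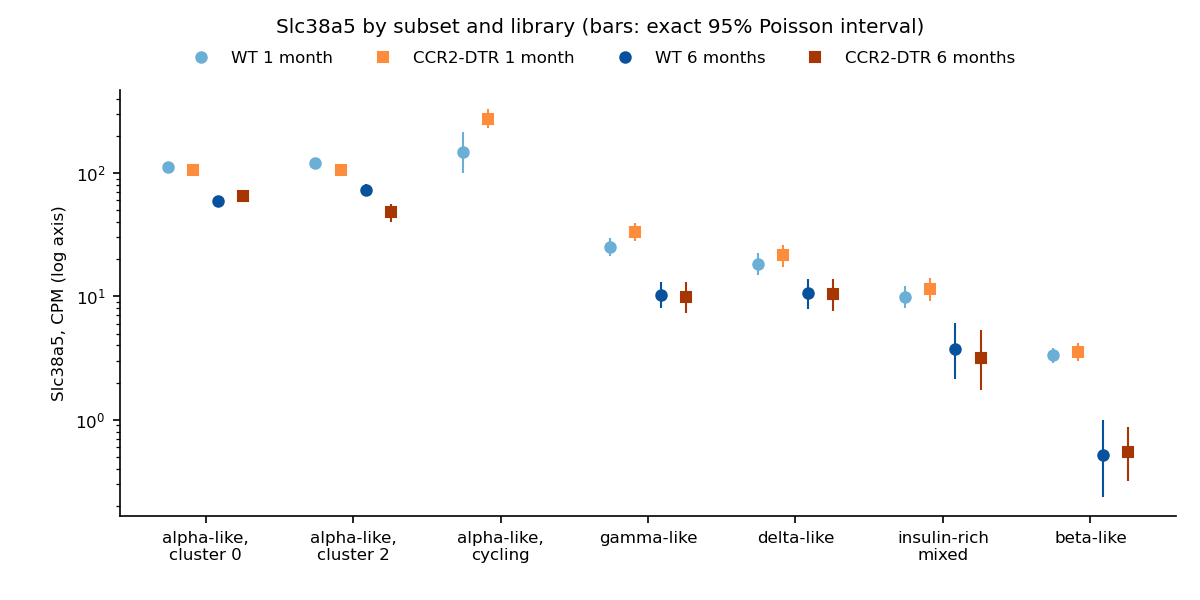
Slc38a5 in subsets of the endocrine cells: CPM (logarithmic vertical axis) by library for each subset (horizontal axis), with exact 95% Poisson intervals as bars and subsets of very few cells left out. The 1-month points of alpha-like clusters 0 and 2 lie between 105.5 and 120.2 CPM and the 6-month points between 47.88 and 73.26 CPM.

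Gamma-like cells gave 25.14, 33.35, 10.28 and 9.851 CPM of Slc38a5, values that overlapped those of delta-like cells. A level for foreign RNA was computed by taking the Ins2, Gcg and Sst found in a class as shares of their beta-like, alpha-like and delta-like levels and applying those shares to the transporter levels of these 3 classes. For gamma-like cells it was 32.7, 29.96, 19.56 and 22.53 CPM. The measured gamma-like values were below that level in 3 of 4 libraries and near it in CCR2-DTR at 1 month. The calculation counts all Gcg of gamma-like cells as foreign. Gcg stood there at 27.0% to 36.2% of its alpha-like level, and Ins2 at 2.56% to 6.97% of its beta-like level. Gcg made by gamma-like cells themselves would raise the computed level, so it cannot decide whether these cells express Slc38a5. For delta-like cells the computed level was 2.41, 3.00, 1.13 and 0.561 CPM, well below the measured 10.42 to 21.48 CPM. For beta-like cells it was 0.477, 0.978, 0.201 and 0.188 CPM, also below the measured values.

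The Slc38a5 promoter is shown because this gene carried the widest difference between classes and the difference with age. It spans chrX:8271131-8271430 (GRCm38.p6, plus strand, RefSeq), from 250 bases before the start site to 50 after it, 5′ to 3′. Capitals mark CACGTG, the E-box read by basic helix-loop-helix factors, 30 bases before the start.
Slc38a5: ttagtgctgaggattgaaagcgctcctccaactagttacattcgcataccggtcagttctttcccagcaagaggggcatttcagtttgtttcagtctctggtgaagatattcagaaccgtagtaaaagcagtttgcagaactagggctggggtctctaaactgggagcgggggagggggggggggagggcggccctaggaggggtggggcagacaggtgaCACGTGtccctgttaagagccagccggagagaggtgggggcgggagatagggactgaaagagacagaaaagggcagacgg
The 4 letter patterns were searched on both strands. Of 32851 promoters of this length, 7.15% held CACGTG, a pattern added after the member sequences had been seen, and besides Slc38a5 the only other member promoter with it was that of Slc7a14, 69 bases before the start. The table held 10 promoters of 8 of the transporter genes. A match is a run of letters and was not tied to any measurement of binding.

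Slc38a4, a sodium-coupled carrier of neutral amino acids that also takes cationic ones (chr15:96994820-97055956, minus strand), marked alpha-like and beta-like cells alike. Alpha-like cells held 123.8, 137.0, 119.6 and 147.4 CPM and beta-like cells 96.35, 121.6, 71.53 and 101.4 CPM. Delta-like cells held 29.73, 41.86, 25.78 and 31.95 CPM, below every alpha-like and beta-like value. Against delta-like cells the log2 difference was 2.39 ± 0.14 for alpha-like (edgeR adjusted p = 4.67e-13) and 2.36 ± 0.13 for beta-like cells (2.75e-13). Alpha-like and beta-like cells differed by -0.03 ± 0.11 after TMM (0.858), while the plain CPM were higher in alpha-like cells in 4 of 4 libraries.

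Of the 6 transporter genes measured there, Slc38a4 had the highest CCR2-DTR to WT ratio in beta-like cells at both ages, short of the 1.5-fold mark. The log2 ratio was 0.34 (0.28 to 0.39) at 1 month and 0.50 (0.41 to 0.60) at 6 months. In cluster 1 the level was 90.09 CPM in WT and 114.6 in CCR2-DTR at 1 month, and 70.82 and 98.28 at 6 months. In cluster 4 it was 100.7 and 125.8, then 72.42 and 108.6, and in cluster 3 it was 90.28 and 117.0, then 62.84 and 91.98. Each beta-like cluster thus had the higher level in the CCR2-DTR library at each age. The clusters are parts of the same libraries, so they do not replicate the difference. Cluster 3 held only 36 cells in WT at 6 months. The median gene measured in beta-like cells was itself at 0.19 at 1 month. Relative to the median gene, Slc38a4 was at 0.14 at 1 month and 0.51 at 6 months. Delta-like cells gave 0.49 (0.17 to 0.82) at 1 month and 0.31 (-0.05 to 0.67) at 6 months, and alpha-like cells 0.15 (0.07 to 0.22) and 0.30 (0.21 to 0.39). The CCR2-DTR libraries also carried more digestive-enzyme RNA in every endocrine class, summed over 31 genes: 7.818 CPM in WT and 154.4 in CCR2-DTR beta-like cells at 1 month, and 24.25 and 206.2 at 6 months. Its part in these ratios was not tested. With age, beta-like Slc38a4 gave -0.43 (-0.52 to -0.34) in WT and -0.26 (-0.33 to -0.20) in CCR2-DTR.

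Slc38a2, the sodium-coupled carrier that cells induce when amino acids run short (chr15:96687392-96699730, minus strand), was most abundant in stromal cells. Endothelial-like cells held 155.7, 221.7, 223.8 and 232.5 CPM and mesenchymal-like cells 166.0, 229.0, 225.7 and 232.2 CPM. Beta-like cells held 69.34, 76.18, 72.63 and 98.02 CPM, alpha-like cells 85.41, 91.26, 61.71 and 82.92 CPM, and delta-like cells 116.0, 114.2, 81.35 and 99.71 CPM. Every endothelial-like value was above every endocrine one, and the 3 endocrine classes overlapped. The endocrine mean was lower by a log2 difference of -0.83 ± 0.08 (edgeR adjusted p = 2.90e-09), which is under 2-fold and so not called. Without TMM factors it was -1.04 (2.75e-11 in edgeR) and was called. Beta-like cells differed from alpha-like by 0.40 ± 0.12 (0.00523) and from delta-like by 0.38 ± 0.12 (0.0131), and both signs turned without TMM factors, to -0.03 and -0.39. Alpha-like against delta-like cells gave -0.03 ± 0.13 (0.902).

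The Slc38a2 level of CCR2-DTR cells at 6 months was above that of WT cells in all 3 endocrine classes, again short of 1.5-fold. The log2 ratio was 0.43 (0.34 to 0.53) in beta-like, 0.43 (0.30 to 0.55) in alpha-like and 0.29 (0.10 to 0.49) in delta-like cells. At 1 month it was 0.14 (0.07 to 0.20), 0.10 (0.00 to 0.19) and -0.02 (-0.20 to 0.15). The unnamed low-UMI cluster, which entered no comparison, held 141.0 (25 cells), 406.7, 343.4 and 389.7 CPM of Slc38a2, above the endothelial-like level of the same library in 3 of 4.

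The Slc38a2 promoter, chr15:96699679-96699978 (GRCm38.p6, minus strand, RefSeq), is shown beside that of Slc7a11, chr3:50443564-50443863 (minus strand), because both genes are known targets of ATF4, the factor of the response to amino acid shortage, and the ATF4 letters were found in this window of Slc7a11 and not of Slc38a2. Capitals mark TGACNNNGC, the antioxidant element read by NRF2, in Slc38a2, and in Slc7a11 TGTTTAC, the forkhead pattern, then TGATGNAA, the amino acid response element read by ATF4, and its reverse complement.
Slc38a2: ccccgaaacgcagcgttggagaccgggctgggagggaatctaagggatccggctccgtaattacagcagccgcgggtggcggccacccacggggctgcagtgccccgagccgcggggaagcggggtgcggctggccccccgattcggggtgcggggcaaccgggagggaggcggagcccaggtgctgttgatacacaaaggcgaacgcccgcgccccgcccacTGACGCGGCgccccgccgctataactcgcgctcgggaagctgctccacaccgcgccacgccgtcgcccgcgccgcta
Slc7a11: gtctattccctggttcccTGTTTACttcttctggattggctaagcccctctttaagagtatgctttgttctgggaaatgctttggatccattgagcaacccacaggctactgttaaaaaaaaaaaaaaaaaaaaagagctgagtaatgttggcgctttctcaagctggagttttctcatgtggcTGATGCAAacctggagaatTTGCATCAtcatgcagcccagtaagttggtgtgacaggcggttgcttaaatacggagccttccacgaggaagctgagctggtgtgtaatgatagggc
TGACNNNGC was in 12.4% of all promoters and, among the member promoters, in that of Slc38a2 alone, 27 bases before the start. TGATGNAA was in 3.97% of all promoters. The Slc7a11 promoter held it as TGATGCAA 66 bases and as TTGCATCA 47 bases before the start, facing opposite ways. TGTTTAC was in 3.65% of all promoters and lay 232 bases before the Slc7a11 start. No overlap between patterns occurred in these sequences. The Slc38a2 promoter was 73% G and C with 41 CpG, that of Slc38a5 56% with 10 and that of Slc7a11 44.7% with 4, where the median promoter had 52.7% and 7.

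Slc7a2, the carrier of arginine, lysine and ornithine (chr8:40862396-40922308, plus strand), was the steadiest alpha-like feature among the transporter genes. Alpha-like cells held 746.5, 738.8, 747.3 and 786.2 CPM, gamma-like cells 275.1, 300.1, 290.7 and 331.9, beta-like cells 118.1, 129.9, 126.6 and 156.3, and delta-like cells 50.99, 53.03, 48.77 and 53.94. These 4 classes did not overlap. Foreign hormone RNA, computed as for Slc38a5, would give gamma-like cells 216.1, 209.1, 235.4 and 290.6 CPM, or 69.7% to 87.5% of their measured level. That level again counts all Gcg of gamma-like cells as foreign, so it does not show how much of their Slc7a2 was foreign. Alpha-like cells were 18.6-fold above delta-like cells (log2 difference 4.22 ± 0.25, edgeR adjusted p = 1.02e-12) and beta-like cells 4.23-fold below alpha-like cells (-2.08 ± 0.22, 1.34e-08). Beta-like against delta-like cells gave 2.14 ± 0.23 (3.41e-08).

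At equal depth of 2000 UMIs, 74.1%, 72.3%, 75.3% and 76.1% of alpha-like cells had an Slc7a2 UMI, against 20.6%, 22.8%, 21.0% and 24.9% of beta-like and 4.88%, 7.34%, 7.06% and 7.29% of delta-like cells. Endothelial-like cells, at 4.91%, 8.33%, 3.41% and 3.98%, gave a background close to the delta-like shares. The level computed from foreign hormone RNA was 22.9, 31.5, 21.4 and 19.2 CPM for delta-like cells, below the measured level in each library. In mesenchymal-like cells Slc7a2 reached 201.5, 144.3, 55.66 and 124.6 CPM, with a computed level of 79.1, 89.1, 18.5 and 50.6. Age left the alpha-like level nearly as it was, with log2 ratios of 0.00 (-0.03 to 0.04) in WT and 0.09 (0.06 to 0.12) in CCR2-DTR. In beta-like cells CCR2-DTR to WT gave 0.14 (0.08 to 0.19) at 1 month and 0.30 (0.23 to 0.38) at 6 months. Between alpha-like clusters the Slc7a2 level did differ: cluster 0 held 803.3 to 838.8 CPM and cluster 2 held 578.9 to 655.6 CPM over the 4 libraries.

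**Figure D3:**
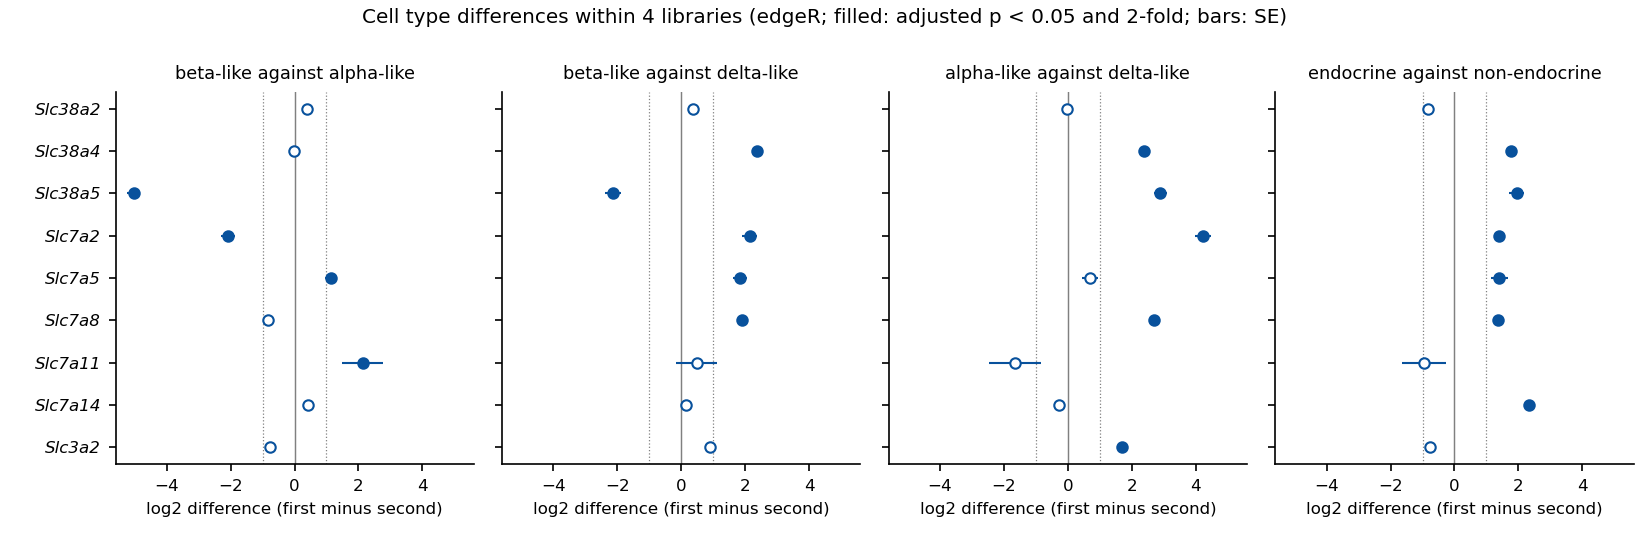
Log2 difference (horizontal axis) between cell classes for the 9 transporter genes tested, 1 panel a comparison, from edgeR's fit on class sums of the 4 libraries, with bars of 1 SE, called genes as filled points and dotted lines at 2-fold. Slc38a5 lies at -5.03 for beta-like against alpha-like cells and Slc7a2 at 4.22 for alpha-like against delta-like cells.

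Slc7a14, a member of the cationic carrier branch found on lysosomes (chr3:31202858-31310378, minus strand), was an endocrine gene shared by all hormone classes. Delta-like cells held 174.8, 177.9, 203.3 and 187.6 CPM, alpha-like cells 126.1, 129.1, 111.5 and 122.5, and beta-like cells 109.4, 120.3, 129.0 and 125.3. Endothelial-like cells held 20.86, 27.5, 19.51 and 28.89 CPM, where foreign hormone RNA would give 17.97, 25.19, 12.46 and 19.2. The endocrine mean was 5-fold above the non-endocrine mean (log2 difference 2.32 ± 0.09, edgeR adjusted p = 5.39e-17, 4 of 4 libraries). Delta-like CPM lay above every other class without overlap, but after TMM no pair of endocrine classes reached 2-fold. Alpha-like against delta-like cells gave -0.27 ± 0.10 (0.041), beta-like against alpha-like 0.41 ± 0.10 (8.58e-04) and beta-like against delta-like 0.15 ± 0.10 (0.23). The last of these became -0.62, and the beta-like against alpha-like value -0.02, without TMM factors.

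Among the light chains that pair with Slc3a2, Slc7a8, a carrier of large and small neutral amino acids (chr14:54722209-54781946, minus strand), was highest in alpha-like cells. These held 154.9, 132.9, 147.8 and 125.3 CPM, beta-like cells 60.51, 59.88, 58.47 and 56.49, and delta-like cells 28.49, 26.52, 29.38 and 24.02, with no overlap between classes. Alpha-like cells were 6.53-fold above delta-like cells (log2 difference 2.71 ± 0.11, edgeR adjusted p = 4.89e-16) and beta-like cells 3.70-fold above them (1.89 ± 0.11, 2.01e-13). Beta-like against alpha-like cells gave -0.82 ± 0.09 (1.20e-08), under 2-fold and not called, but without TMM factors it was -1.25 (5.34e-11 in edgeR) and was called. Macrophage-like cells held 84.85, 74.39, 45.83 and 49.65 CPM, above the 24.38, 30.01, 10.59 and 15.08 CPM computed from foreign hormone RNA, whereas endothelial-like cells, at 12.67, 14.76, 8.214 and 8.889 CPM, were near their computed 12.41, 14.49, 6.153 and 9.066. In alpha-like cells the CCR2-DTR to WT log2 ratio was -0.22 (-0.29 to -0.15) at 1 month and -0.24 (-0.33 to -0.15) at 6 months. Slc7a8 was 1 of 2 measured transporter genes that were lower in CCR2-DTR alpha-like cells at both ages, and the interval of the other, Slc38a5, spanned 0 at each age.

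Slc7a5, the leucine carrier of dividing cells (chr8:121881150-121907694, minus strand), was scarce in every class. Beta-like cells held 4.138, 3.576, 5.859 and 6.145 CPM (101 to 244 UMIs a library), alpha-like cells 3.598, 2.798, 2.529 and 2.824, and delta-like cells 2.477, 2.63, 1.399 and 2.719, from 7 to 12 UMIs. After TMM, beta-like cells were 2.20-fold above alpha-like (log2 difference 1.14 ± 0.18, edgeR adjusted p = 8.65e-06) and 3.58-fold above delta-like cells (1.84 ± 0.23, 3.86e-07). The beta-like against alpha-like call was not stable: the difference was 0.70 to 1.00 and under 2-fold in 5 alternatives. With age the beta-like level gave 0.50 (0.15 to 0.84) in WT and 0.78 (0.46 to 1.11) in CCR2-DTR, under the 20 CPM floor set for a ratio to count.

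Slc7a11, which exchanges cystine for glutamate and feeds glutathione synthesis (chr3:49892526-50443614, minus strand), was at or near the limit of detection. Beta-like cells gave 27, 7, 16 and 59 UMIs, or 0.4579, 0.1841, 0.9282 and 1.898 CPM, and alpha-like cells 1, 7, 2 and 5 UMIs. The difference between them was called (log2 2.14 ± 0.64, edgeR adjusted p = 0.0066). It ended without the WT 1 month library (1.86, adjusted p = 5.25e-02) and in DESeq2 (2.00, adjusted p = 6.25e-02). In CCR2-DTR the beta-like count was higher at 6 months, a log2 ratio of 3.37 (2.23 to 4.74) from 7 and 59 UMIs spread over 7 and 51 cells. Delta-like cells of CCR2-DTR at 6 months gave 20 UMIs, all in 1 cell, and in the other 3 libraries 0, 1 and 0. A count of 0 allowed up to 0.6193 CPM in WT at 1 month and 0.5996 CPM in WT at 6 months, at 3 UMIs. Macrophage-like cells gave 5, 4, 1 and 7 UMIs, and the 9 acinar-like cells of WT at 6 months gave 15.

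The heavy chain gene Slc3a2 (chr19:8706882-8723369, minus strand) was highest in endothelial-like cells, at 225.0, 245.5, 235.1 and 241.3 CPM, followed by macrophage-like cells at 184.7, 191.7, 184.7 and 179.3 CPM. Alpha-like cells held 168.4, 172.6, 117.3 and 140.6 CPM, beta-like cells 57.79, 67.93, 61.37 and 71.87, and delta-like cells 60.9, 68.37, 46.77 and 60.28. Alpha-like values lay above all beta-like and delta-like ones, which overlapped. Alpha-like cells were 3.20-fold above delta-like cells (log2 difference 1.68 ± 0.09, edgeR adjusted p = 1.48e-13). The differences of beta-like from alpha-like cells (-0.77 ± 0.08, 8.77e-09), of beta-like from delta-like cells (0.90 ± 0.09, 6.07e-09) and of endocrine from non-endocrine classes (-0.76 ± 0.06, 2.85e-11) were under 2-fold. The first was called without TMM factors, at -1.21 (9.19e-11 in edgeR). The second was called without the CCR2-DTR 1 month library, at 1.03 (4.35e-08), and with classes from the leading hormone, at 1.35 (2.95e-03). The alpha-like level gave a log2 age ratio of -0.52 (-0.61 to -0.44) in WT and -0.30 (-0.37 to -0.22) in CCR2-DTR. At 6 months CCR2-DTR to WT gave 0.26 (0.17 to 0.35) in alpha-like, 0.23 (0.12 to 0.33) in beta-like and 0.37 (0.11 to 0.63) in delta-like cells.

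Slc3a1, the other heavy chain gene (chr17:85028376-85064236, plus strand), was barely counted. Beta-like cells gave 40, 25, 12 and 44 UMIs, alpha-like cells 16, 14, 4 and 7, and delta-like cells 1, 2, 3 and 0. Macrophage-like cells gave 0 in all 4 libraries, which allowed up to 2.223 to 4.044 CPM. No class stood apart at this depth.

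**Figure D4:**
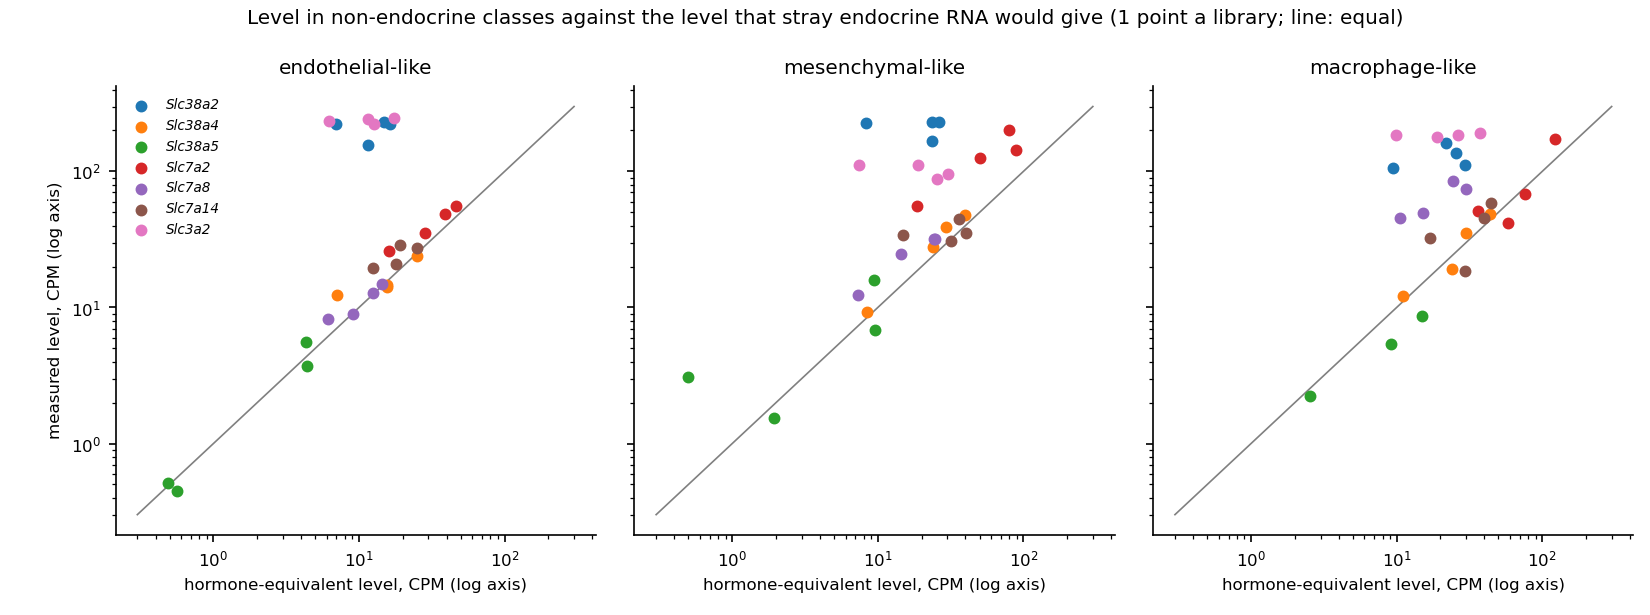
Measured CPM of 7 transporter genes (vertical axis, logarithmic) against the level computed for foreign endocrine RNA (horizontal axis, CPM, logarithmic) in endothelial-like, mesenchymal-like and macrophage-like cells, 1 panel a class and 1 point a library, with values of 0 left out and the line of equality drawn. Slc38a2 and Slc3a2 in endothelial-like cells lie far above the line, while Slc38a4 and Slc7a8 in endothelial-like cells lie along it.

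Between endocrine and non-endocrine classes, the genes called higher were Slc7a14, Slc38a5 (log2 difference 1.94 ± 0.25, edgeR adjusted p = 2.51e-07), Slc38a4 (1.76 ± 0.11, 8.25e-13), Slc7a5 (1.40 ± 0.26, 4.84e-05), Slc7a2 (1.39 ± 0.15, 1.27e-08) and Slc7a8 (1.35 ± 0.09, 9.67e-13). These calls rest on class means and did not hold for each class. Mean Slc38a5 was 1.99 CPM in beta-like cells, below endothelial-like (2.559), macrophage-like (4.044) and mesenchymal-like cells (6.84). Mean Slc7a2 of delta-like cells (51.68 CPM) was below macrophage-like (83.29) and mesenchymal-like cells (131.5) but above endothelial-like cells (41.27). Mean Slc7a8 of macrophage-like cells (63.68 CPM) was above beta-like (58.84) and delta-like cells (27.1). Slc7a5 rested on 10, 5 and 8 UMIs over the 4 libraries in endothelial-like, mesenchymal-like and macrophage-like cells. With doublets kept, Slc7a5 (0.85), Slc7a2 (0.73) and Slc7a8 (0.78) were under 2-fold and not called. Slc7a11 gave -0.95 ± 0.70 (0.232), and -2.33 (3.27e-02 in edgeR) without the CCR2-DTR 6 months library. In endothelial-like cells Ins2 stood at 8.72% to 16.5% of its beta-like level, so part of the non-endocrine counts of these genes can be RNA of endocrine cells. For Slc38a4 the measured endothelial-like levels were 14.53, 23.81, 12.32 and 14.22 CPM and the computed ones 15.6, 24.9, 7.10 and 15.7. Slc38a2 and Slc3a2 in endothelial-like cells were at least 155.7 and 225.0 CPM in every library, against computed levels of at most 16.3 and 17.4 CPM.

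The counts of transporter genes past 1.5-fold between libraries were small. A gene entered with at least 20 CPM in 1 of the 2 libraries and 20 UMIs over both, which 6 transporter genes met in beta-like cells, 7 in alpha-like cells and 6 or 7 in delta-like cells. In beta-like cells 0 of 6 were past 1.5-fold in CCR2-DTR against WT at 1 month (0.984% of all genes measured), 0 of 6 at 6 months (0.693%), 0 of 6 with age in WT (4.00%) and 0 of 6 with age in CCR2-DTR (7.96%). In alpha-like cells the counts were 0 of 7 (1.14%), 0 of 7 (1.11%), 1 of 7 (3.15%) and 1 of 7 (4.04%) in the same order. In delta-like cells they were 0 of 7 (1.29%), 0 of 6 (1.40%), 0 of 6 (5.20%) and 1 of 7 (6.34%). The gene was Slc38a5 each time, lower at 6 months. In delta-like cells the floor decided whether it was counted: it entered in CCR2-DTR through its 1-month level of 21.48 CPM alone, and in WT its 18.37 CPM kept it out, so the delta-like count supports nothing. Each library enters 2 of the 4 comparisons of a class, so these are not independent. The median gene measured had a log2 ratio of 0.19 for beta-like CCR2-DTR against WT at 1 month, where the hormone share of UMIs was 48.4% and 54.4%, and between -0.11 and 0.08 in the other 11 comparisons. Against that shift, beta-like Slc38a2, Slc7a2 and Slc7a14 at 1 month were at -0.06 each and Slc38a4 at 0.14.

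**Figure D5:**
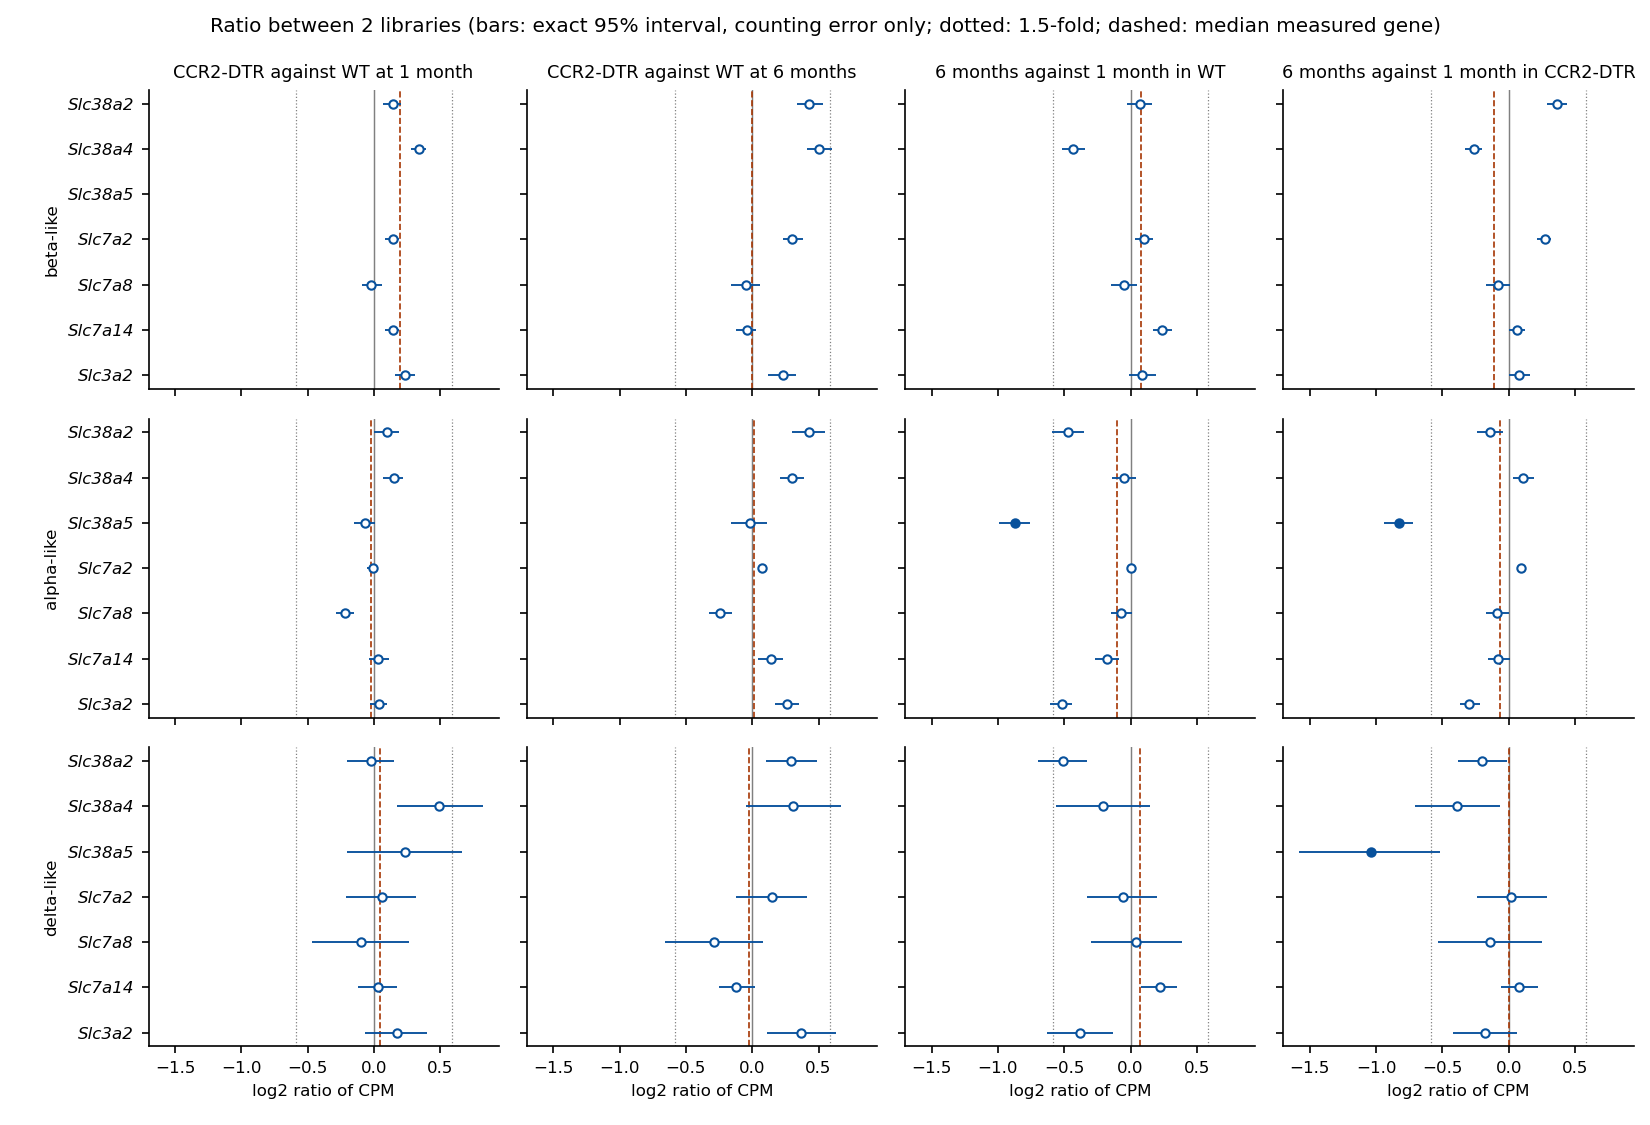
Log2 ratio between libraries (horizontal axis) of each measured transporter gene in beta-like, alpha-like and delta-like cells, for CCR2-DTR against WT at each age and 6 months against 1 month in each genotype. Bars are exact 95% counting intervals, the dashed line is the median measured gene, and filled points are past 1.5-fold (dotted lines). Slc38a5 in alpha-like cells lies at -0.87 and -0.83 with age.

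Across the 28 sums of 7 classes and 4 libraries, the 7 transporter genes with at least 20 CPM in a class were compared with 9435 genes by Pearson correlation of log2(CPM + 10), as a description. The sums share libraries, depth and class markers. Slc38a5 was most like Nxph1 (r = 0.951), Slc25a53 (0.926) and Irx2 (0.913), and Slc7a2 most like Tmsb15b2 (0.965), Vipr1 (0.951) and Ttr (0.946). Irx2 and Ttr were among the markers used to name alpha-like cells. Slc7a8 was most like Tmsb15b2 (0.887), Ttr (0.858) and Ang (0.853), and Slc38a4 most like C2cd4b (0.943), Nell1 (0.939) and Skap1 (0.936). Slc7a14 was most like Unc80 (0.98), the endocrine transcription factor gene Pax6 (0.977) and 1700019D03Rik (0.977). Slc38a2 was most like Psmc3 (0.937), Tspan4 (0.935) and Tns1 (0.933), and Slc3a2 most like Fam126a (0.933), Klf4 (0.931) and Srgap2 (0.906). Among the transporter genes themselves Slc7a2 and Slc7a8 had r = 0.833, Slc38a4 and Slc7a2 0.828, and Slc38a2 and Slc7a14 -0.804. The heavy chain gene Slc3a2 had -0.0955 with its partner Slc7a8.

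Of 46 other amino acid transporter genes 24 were tested, and they spread in both directions. Beta-like against alpha-like cells, 3 were called higher and 5 lower, against 8.86% and 10.8% of all genes. The median log2 difference was 0.29 where the median of all genes was -0.03. The higher ones were the glycine carrier gene Slc6a9 (1.73), the serine and alanine carrier gene Slc1a4 (1.63) and the lysosomal carrier gene Slc36a1 (1.25), and the furthest lower were Slc7a7 (-4.37), another partner of Slc3a2, Slc38a11 (-3.15) and the glutamine carrier gene Slc1a5 (-1.63). Beta-like against delta-like cells, 2 were called higher and 5 lower, against 7.00% and 12.4% of all genes. Slc38a1 (-5.57), Slc38a11 (-5.49) and the glutamate carrier gene Slc1a1 (-5.07) were furthest lower. Without TMM factors 1 was called higher and 12 lower there. That setting moves every gene toward lower in beta-like cells. The share of all genes called in it is not given, so the 12 cannot be read as a trait of this list. Alpha-like against delta-like cells gave 1 and 4, against 4.75% and 8.74% of all genes. Endocrine against non-endocrine classes gave 4 and 5, against 16.7% and 18.5% of all genes. Slc16a10 (2.37), an aromatic amino acid carrier gene, Slc7a4 (2.34) and Slc6a17 (2.19) were highest. Between libraries, Slc6a17, a vesicular carrier gene, was past 1.5-fold higher with age in delta-like cells in both genotypes, with log2 ratios of 0.84 (0.54 to 1.15) in WT and 0.94 (0.60 to 1.30) in CCR2-DTR. It was 1 of 9 genes of this list measured there in each genotype. Of all genes, 3.97% in WT and 4.15% in CCR2-DTR were past 1.5-fold higher.

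Genes of the response to amino acid shortage that ATF4 drives were called in beta-like cells mostly as higher. Unlike the carriers, these genes took part in the clustering, so their class differences describe the classes. Of 25 listed, 22 were tested. Against alpha-like cells 10 were called higher, 2 lower and 10 not, where 8.86% and 10.8% of all genes were called higher and lower. Against delta-like cells 12 were called higher, 1 lower and 9 not, where the shares of all genes were 7.00% and 12.4%. Without TMM factors the counts were 8 higher and 3 lower, then 7 higher and 2 lower. No share of all genes is given for that setting. The median log2 differences were 0.89 and 1.15, and those of all genes -0.03 and -0.02. Nupr1 (4.21), Atf5 (3.68) and Vldlr (3.36) were furthest above alpha-like cells, and Atf3 (-4.61) and Ppp1r15a (-1.18) below. With age, 4 of 11 measured in beta-like cells were past 1.5-fold higher in WT and 6 of 11 in CCR2-DTR. Of all genes, 2.45% and 1.76% were past it higher, and 4.00% and 7.96% in either direction. In alpha-like cells 0 of 8 were past it higher and 2 lower in WT (median log2 ratio -0.41), and 0 of 9 in either direction in CCR2-DTR. In delta-like cells 0 of 11 were past it in WT and 1 of 13, higher, in CCR2-DTR. Of all genes, 3.15% in WT and 4.04% in CCR2-DTR were past it in either direction in alpha-like cells. In delta-like cells these shares were 5.20% and 6.34%. Atf5 led cluster 1, which held 833 of 3236 and 646 of 2630 beta-like cells at 1 month and 335 of 590 and 629 of 1134 at 6 months, and its part in the beta-like counts was not tested. Among the beta-like genes were the stress protein gene Nupr1, with log2 age ratios of 3.32 (3.19 to 3.46) and 4.04 (3.83 to 4.25), and Atf5, with 0.93 (0.87 to 0.99) and 1.24 (1.18 to 1.30). Of the transporter genes on the same response, Slc38a2 and Slc3a2 met the 20 CPM floor in beta-like cells. They gave 0.07 (-0.03 to 0.16) and 0.09 (-0.01 to 0.19) in WT. In CCR2-DTR they gave 0.36 (0.29 to 0.44) and 0.08 (0.00 to 0.16). Slc7a11, another ATF4 target, was under that floor, on 7 to 59 UMIs a library. It gave 1.02 (0.03 to 1.96) in WT and 3.37 (2.23 to 4.74) in CCR2-DTR. Slc7a5, also under the floor, gave 0.50 (0.15 to 0.84) and 0.78 (0.46 to 1.11).

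Shares of all genes called higher and lower stand beside the list counts of this paragraph. They were 8.86% and 10.8% for beta-like against alpha-like cells, and 7.00% and 12.4% for beta-like against delta-like cells. For alpha-like against delta-like cells they were 4.75% and 8.74%, and for endocrine against non-endocrine classes 16.7% and 18.5%. No list was tested against them. Genes of glutathione and NRF2 were called higher in beta-like than in alpha-like cells for 2 of 10 tested (Nqo1 2.06 and Hmox1 1.77) and lower for 0. Against delta-like cells the counts were 3 and 0. Alpha-like against delta-like cells gave 1 and 0, and endocrine against non-endocrine classes 1 and 1. Of 21 genes of amino acid sensing by mTORC1, 1 was called higher and 3 lower in beta-like than in alpha-like cells. The lower ones were Rragb (-2.38), Castor2 (-2.32) and the arginine sensor gene Castor1 (-1.87). The other comparisons gave 1 and 3 against delta-like cells, 3 and 0 for alpha-like against delta-like cells, and 4 and 1 for endocrine against non-endocrine classes. Of 23 amino acid metabolism genes 18 were tested, with 4 called higher and 4 lower in beta-like than in alpha-like cells. Gad1, which makes GABA from glutamate, was at 4.31 and Bckdhb at 1.69, while Oat, of ornithine metabolism, was at -3.76. Arg1 was the furthest lower at -5.27. It was also among the leading genes of the delta-like cluster, a class outside that comparison. The remaining comparisons of this list gave 3 and 3, 2 and 4, and 2 and 6. Genes of the lists in this paragraph were not left out of the clustering either, so their class differences describe the classes. In beta-like cells at 6 months Gad1 was the only gene of the 5 lists past 1.5-fold between genotypes, with a log2 CCR2-DTR to WT ratio of 0.71 (0.59 to 0.84).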

How the data were processed

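Islet cells of 4 libraries were counted by the authors with Cell Ranger 5.0.1 on mm10, per the file headers and the submitters' processing notes. The deposited values are raw UMI counts per gene and barcode, with gene and barcode names as the other deposited columns; the annotation release is not given in the sources used here. Depth is given with the results.

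Barcodes under 1000 UMIs or 500 genes, or with over 15% of UMIs from mitochondrial genes, were left out, and 87 to 363 cells a library (2.34% to 3.99%) scoring 0.25 or more for doublets were removed. Clusters came from scanpy 1.11.5 (1969 variable genes without transporter, digestive-enzyme or haemoglobin genes, 30 components, 15 neighbours, Leiden resolution 1, 22 clusters) and were named from fixed markers of 12 cell types. Cells of the dividing cluster were classed by their leading hormone. Counts were summed by class and library. Classes were compared with edgeR 4.0.16 (quasi-likelihood test, library block, 24 sums) and with DESeq2 1.42.0 as an alternative. The 4 libraries are treated as replicates of a cell class, although genotype and age differ among them. The edgeR step was tested on simulated data.

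The members and lists were chosen with earlier results of these data known. Named are all 10 members, at most 3 genes of each list furthest in each direction, and the 3 genes most like a member. One gene that this rule names is not reported here. Gene positions are from GENCODE M21 and promoters from RefSeq.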

Additional observations from a re-analysis of the deposited data

How the results depend on the processing

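Over 469 values for 36 results on cell classes, 437 kept their direction and call, 11 lost the call, 9 gained it and 12 turned. Over 591 values for 78 ratios between libraries, 496 stayed within the counting interval, 87 moved beyond it and 8 turned.

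With the library left out as a block (no replicate block), the counts of transporter genes called stayed at 4 for beta-like against alpha-like, 5 for beta-like against delta-like, 5 for alpha-like against delta-like and 6 for endocrine against non-endocrine classes. Leaving out 1 library gave 3 to 4, 5 to 6, 5 to 6 and 6 to 7 in that order. Beta-like against alpha-like, the count was 2 of 7 tested with cells thinned to 2000 UMIs and 2 of 7 with classes from the leading hormone of each cell, against 4 of 9. Slc7a5 and Slc7a11, the 2 called higher, were not tested in either. Endocrine against non-endocrine, it was 3 with doublets kept, where Slc7a2 gave 0.73, Slc7a5 0.85 and Slc7a8 0.78. The leading-hormone classes held only 3 to 13 delta cells a library, and there Slc38a5 gave 1.60 for alpha-like against delta-like (adjusted p = 6.58e-02 in edgeR). No share of all genes, called or past 1.5-fold, is given for these alternative settings. Their counts thus cannot be read as a trait of the transporter genes. Counts past 1.5-fold were 2 in alpha-like cells with age in WT when thinned (Slc38a5 and Slc3a2). In delta-like cells at 1 month they were 1 with every cell weighing the same (Slc38a4) and 2 when thinned (Slc38a4 and Slc3a2). With age in WT delta-like cells they were 1 over UMIs outside hormone genes (Slc38a5) and 1 with the leading hormone (Slc38a2). With age in CCR2-DTR delta-like cells the count was 0 at a floor of 50 CPM, and thinning gave -0.55 for Slc38a5, short of 1.5-fold, with Slc38a4 past it. In alpha-like cells Slc38a5 with age ranged from -1.0 to -0.77 in WT and from -0.85 to -0.71 in CCR2-DTR and was past 1.5-fold in every setting run.

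Some differences turned. For alpha-like against delta-like, Slc38a2 gave 0.04 without WT 1 month (-0.07 to 0.04 over the libraries left out) and 0.33 with the leading hormone, and Slc7a11 gave 1.61 without CCR2-DTR 6 months (from -2.45). For beta-like against alpha-like, Slc38a2 gave -0.03 and Slc7a14 -0.02 without TMM factors, and Slc38a4 gave 0.09 without WT 6 months, 0.01 without CCR2-DTR 6 months (from -0.11) and 0.01 when thinned. For beta-like against delta-like without TMM factors, Slc38a2 gave -0.39, Slc7a11 -0.30 and Slc7a14 -0.62, and Slc7a11 ranged from -0.02 without WT 6 months to 3.31 without CCR2-DTR 6 months. For beta-like CCR2-DTR against WT at 1 month, Slc38a2 gave -0.04 over UMIs outside hormone genes, -0.08 when thinned and -0.06 relative to the median gene, and Slc7a2 and Slc7a14 gave -0.04 and -0.06 each under the first and last of these. Slc3a2 with age in WT delta-like cells gave 0.22 when thinned. The cause of these changes was not tested. TMM-free totals, the mixed cluster counted as beta-like, the dividing cluster left out and ratios to the median gene were chosen after seeing the data. Each genotype and age is 1 library, so the spread between animals is unknown, and genes under 20 CPM rest on few UMIs.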
